A study of Mus musculus with 12 samples.

Results

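The genes described here are 40 cell cycle genes chosen by name, 13 that act in S phase or in the step into it and 27 that act in mitosis or in the preparation for it. On the expression arrays of this series 39 of the 40 had a row that names that gene alone, 12 of the S phase genes and all 27 mitotic genes, among 22180 genes with such a row. Only Ccne2 had none and is not analysed here. The choice used no measured value, but it was made with earlier results of these data known.

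Cells that divide copy their DNA in S phase and separate the copies in mitosis, and each step has its own set of proteins whose mRNAs rise and fall with the cycle. In skin, division takes place mainly in the basal layer of the epidermis and in the matrix of growing hair follicles, so the level of these mRNAs in a piece of skin depends both on how much the epidermis divides and on the stage of the hair cycle. Psoriasis-like inflammation thickens the epidermis, and genes such as Mki67 and Top2a are widely used as markers of dividing keratinocytes.

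The samples are 12 pools of dorsal skin RNA, each from male and female mice of strain C57Bl/6 and each read on 1 array. The 4 genotypes are WT, IL-6KO (without the cytokine IL-6), IL-17C+ (carrying a transgene for the cytokine IL-17C) and IL-17C+KO (the transgene without IL-6). Both transgenic genotypes gave skin of affected areas, called involved, and other skin, called uninvolved, which makes 6 groups. Every group has n = 2 pools, 1 from mice of 10 weeks and 1 from mice of 14 weeks, with 4 mice in the 10 week pools of WT and IL-6KO and 5 mice in every other pool. The series asks how this inflammation fares in mice that lack IL-6. The sources used here do not name the promoter that drives the transgene, nor say whether an involved and an uninvolved pool come from the same animals. One label calls the IL-6KO pools involved although their genotype names no transgene; they are kept under their title. Because every pool is whole skin, more dividing cells and more of an mRNA per cell cannot be told apart. The p-values rest on the spread between the pools of a group that is left after a shared age difference. Those pools differ in mice and in age, and part of their spread may be technical.

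Promoter sequences of these genes are shown first because S phase and mitotic genes are known to differ in their promoters: the CCAAT box and the CHR element are known from mitotic genes, and E2F sites from S phase genes. RefSeq (build GRCm38.p6) gave a window of 250 bases before to 50 bases after the annotated start for 33 of the 40 genes. Those not matched are Ccne2, Ccna2, Foxm1, Aurkb, Pbk, Kif20a and Tpx2. Below are the windows of the 4 mitotic genes with a window that passed a test between groups (Plk1, Cenpe, Birc5 and Bub1) and of 2 helicase genes that hold E2F cores (Mcm3 and Mcm6). All are written 5′ to 3′ on the strand of the gene, with capitals marking every match on either strand to CCAAT or to the CHR element, searched as TTTGAA and as TTTAAA. They also mark the E2F core, searched in the form TTCCCGC, the form TTGGCGC, the form TTCGCGC and the form TTGCCGC. On the other strand a CCAAT box can share bases with an E2F core. Overlapping matches share their capitals, as where an E2F core meets its own reverse complement.
Plk1: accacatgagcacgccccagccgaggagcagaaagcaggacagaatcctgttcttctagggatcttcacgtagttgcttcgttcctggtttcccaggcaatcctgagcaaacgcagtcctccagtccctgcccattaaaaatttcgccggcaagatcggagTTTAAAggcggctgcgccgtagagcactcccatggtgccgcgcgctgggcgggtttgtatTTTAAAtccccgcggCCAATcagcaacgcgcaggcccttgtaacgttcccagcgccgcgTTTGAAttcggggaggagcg
Cenpe: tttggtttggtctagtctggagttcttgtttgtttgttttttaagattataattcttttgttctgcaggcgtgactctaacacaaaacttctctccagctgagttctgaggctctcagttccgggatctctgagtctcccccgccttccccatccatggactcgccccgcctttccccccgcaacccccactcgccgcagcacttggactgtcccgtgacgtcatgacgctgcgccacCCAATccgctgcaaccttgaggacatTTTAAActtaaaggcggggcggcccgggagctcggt
Birc5: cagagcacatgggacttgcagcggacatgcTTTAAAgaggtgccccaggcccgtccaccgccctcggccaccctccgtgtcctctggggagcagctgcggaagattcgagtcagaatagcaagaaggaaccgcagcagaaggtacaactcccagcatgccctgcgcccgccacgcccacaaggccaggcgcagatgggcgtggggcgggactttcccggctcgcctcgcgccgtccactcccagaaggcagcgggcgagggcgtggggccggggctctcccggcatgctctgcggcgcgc
Bub1: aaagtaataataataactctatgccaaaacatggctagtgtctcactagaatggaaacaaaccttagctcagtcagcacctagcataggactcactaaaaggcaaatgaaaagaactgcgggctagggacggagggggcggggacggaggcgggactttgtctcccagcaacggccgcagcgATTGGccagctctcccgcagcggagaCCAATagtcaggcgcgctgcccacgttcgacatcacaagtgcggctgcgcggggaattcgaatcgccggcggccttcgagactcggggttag
Mcm3: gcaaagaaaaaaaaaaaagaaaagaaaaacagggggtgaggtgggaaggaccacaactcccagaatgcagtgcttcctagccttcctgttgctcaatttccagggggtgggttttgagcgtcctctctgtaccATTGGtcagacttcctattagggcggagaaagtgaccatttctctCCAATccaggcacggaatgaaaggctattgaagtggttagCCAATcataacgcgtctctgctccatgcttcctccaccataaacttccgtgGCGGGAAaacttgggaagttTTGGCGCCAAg
Mcm6: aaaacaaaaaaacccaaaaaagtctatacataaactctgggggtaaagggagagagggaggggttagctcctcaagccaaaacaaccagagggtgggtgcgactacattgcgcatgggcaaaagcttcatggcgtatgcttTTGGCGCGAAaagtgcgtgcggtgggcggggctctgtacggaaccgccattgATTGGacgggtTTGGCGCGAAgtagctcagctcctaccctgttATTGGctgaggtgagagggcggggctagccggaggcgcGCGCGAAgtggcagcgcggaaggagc

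The Plk1 window is chr7:122159185-122159484 on the plus strand, with 1 CCAAT box and 3 CHR matches. That of Cenpe is chr3:135212313-135212612 on the plus strand, with 1 of each, and that of Birc5 is chr11:117848987-117849286 on the plus strand, with 1 CHR match and no CCAAT box. The Bub1 window, chr2:127831810-127832109 on the minus strand, holds 2 CCAAT boxes and no CHR match. Mcm3 (chr1:20820263-20820562 on the minus strand) has 3 CCAAT boxes and 3 E2F cores, and Mcm6 (chr1:128359656-128359955 on the minus strand) has 2 and 5. Neither holds a CHR match, but Mcm5, a helicase gene whose window is not shown, has 1, with 3 CCAAT boxes and 3 E2F cores.

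Across the members the letters divided by phase. A CCAAT box was present in 18 of 21 mitotic windows (85.7%) and in 7 of 12 S phase windows (58.3%), against 37.4% of all 32851 windows and 38.2% of those of protein-coding genes. CHR letters were present in 19 of 21 mitotic windows (90.5%) and 5 of 12 S phase windows (41.7%), against 27.6% of all windows. Both together occurred in 17 of 21 mitotic windows (81%), 4 of 12 S phase windows (33.3%) and 10.7% of all windows. The E2F core went the other way, with 5 of 12 S phase windows (Cdc6, Mcm3, Mcm5, Mcm6 and Rrm2), 2 of 21 mitotic windows (Cdk1 and Mki67) and 9.57% of all windows. Only Nusap1 among the mitotic windows held neither a CCAAT box nor CHR letters. A match is a description of letters and not a binding site, and a window without a match says nothing about a factor.

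Before any group is compared, the labels need a caution, since Il17c and Il6 followed them only in part. The log2 level of Il17c was 6.30 and 6.17 at 10 and 14 weeks in IL-6KO skin, which should carry no transgene, and 4.74 and 4.16 in IL-17C+ uninvolved skin, which overlaps the 4.67 and 4.96 of WT. As labelled, it lay above WT in IL-17C+ involved skin (5.81 and 6.63). So it did in IL-17C+KO involved (5.32 and 5.62) and uninvolved skin (6.16 and 6.25). Il6 read highest, at 4.93 and 5.00, in IL-17C+KO uninvolved skin, against 2.92 and 2.88 in WT, and at 3.14 and 4.64 it also lay above WT in IL-17C+KO involved skin. Both groups are labelled as lacking IL-6, and the value of 3.14 lay below its array median of 4.04. In IL-6KO skin Il6 read lowest, at 2.68 and 2.79. These values and those of WT all lay below their array medians, so they cannot bear out the label. The sources used here do not say whether these rows read the transgene and the disrupted part of Il6, so all group names below are labels. Array medians lay between 3.97 and 4.23 on the log2 scale, and 30 of the 39 members were above them on all 12 arrays. Every member was above on at least 2 arrays, Bub1 on 2, Cdc6 on 4 and Birc5 on 6, so many values of these 3 genes lie near the low end of the arrays.

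The mitotic genes were low in WT skin, high in IL-17C+ involved skin at both ages, and high in some pools labelled IL-6KO or IL-17C+KO. Averaged over the 27 genes, the log2 level at 10 and 14 weeks was 4.74 and 4.75 for WT, and for IL-17C+ mice 4.88 and 5.07 at uninvolved and 5.67 and 5.52 at involved sites. Among pools labelled as lacking IL-6 it was 5.13 and 5.66 for IL-6KO, and for IL-17C+KO mice 4.89 and 5.65 at involved and 5.72 and 5.51 at uninvolved sites. The 12 S phase genes kept a similar order over a smaller range, from 4.98 and 5.01 in WT to 5.47 and 5.48 in IL-17C+ involved skin, with 5.56 and 5.37 for the IL-17C+KO uninvolved pools. Ranked among the 12 arrays gene by gene, all 27 mitotic genes fell in the upper 6 in IL-17C+ involved and in IL-17C+KO uninvolved skin at 10 weeks. In IL-17C+ uninvolved skin at 10 weeks none did, and in WT 2 did at 10 weeks and 1 at 14 weeks.

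**Figure D1:**
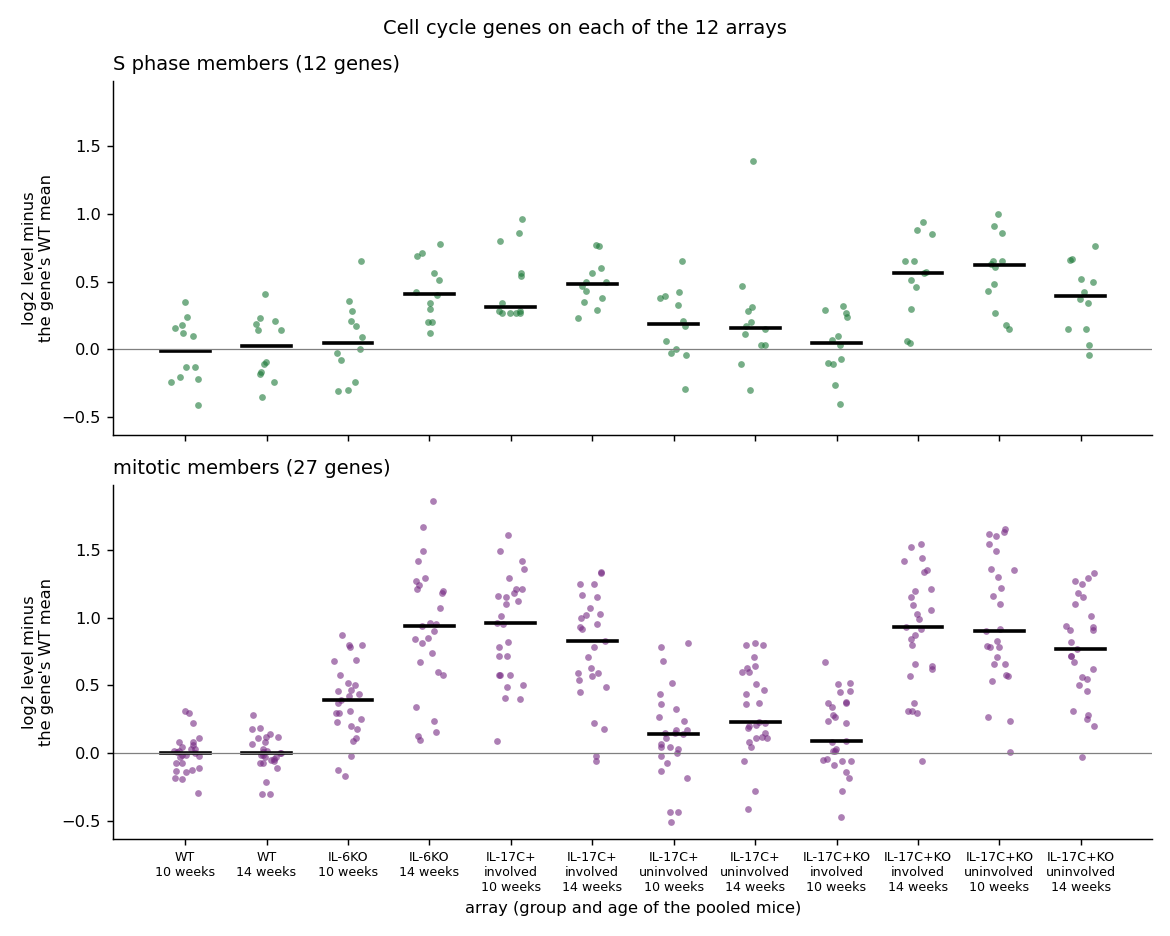
Log2 level of each gene on each of the 12 arrays minus that gene's WT mean, with S phase genes above and mitotic genes below; each point is a gene and each bar the median of an array. The mitotic genes spread upward in IL-17C+ involved skin at both ages, in IL-17C+KO uninvolved skin at both ages, and in IL-6KO and IL-17C+KO involved skin mostly at 14 weeks.

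Mki67 encodes the Ki-67 antigen, which coats chromosomes in mitosis. Its log2 level at 10 and 14 weeks was 6.82 and 6.85 for WT, 7.36 and 8.70 for IL-6KO, 8.02 and 7.91 for involved and 7.17 and 7.65 for uninvolved skin of IL-17C+ mice, and 6.87 and 8.38 for involved and 8.33 and 8.17 for uninvolved skin of IL-17C+KO mice. The highest array was thus IL-6KO skin at 14 weeks, and the IL-17C+KO involved pool at 10 weeks lay next to WT. Top2a, the topoisomerase that untangles sister DNA, read in the same order 5.73 and 5.30, 5.97 and 6.78, 7.0 and 6.76, 5.65 and 6.11, 5.53 and 6.93, and 7.05 and 6.80. WT and IL-17C+ involved skin did not overlap for either gene.

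Cdk1, the kinase that drives cells into mitosis, had log2 levels of 5.65 and 5.04 for WT, 5.57 and 5.50 for IL-6KO, 6.63 and 6.34 for involved and 5.16 and 5.53 for uninvolved skin of IL-17C+ mice, and 5.43 and 6.26 for involved and 6.13 and 5.90 for uninvolved skin of IL-17C+KO mice. Here IL-17C+ involved skin had the highest 2 arrays, and IL-6KO skin lay inside the WT range, unlike for Mki67. Birc5, or survivin, is a subunit of the chromosomal passenger complex. Its levels in the same order were 3.44 and 3.45, 3.95 and 4.30, 5.06 and 4.79, 3.56 and 3.89, 3.72 and 4.32, and 4.75 and 4.46. Again the highest 2 arrays were those of IL-17C+ involved skin, and every other group lay above WT.

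Plk1, a kinase of spindle assembly and mitotic exit, read 4.76 and 4.99 for WT, 5.31 and 5.83 for IL-6KO, 5.82 and 6.20 for involved and 4.87 and 5.09 for uninvolved skin of IL-17C+ mice, and 4.83 and 5.51 for involved and 5.53 and 5.49 for uninvolved skin of IL-17C+KO mice. Cenpe, the kinesin that links kinetochores to microtubules, read in the same order 4.56 and 4.70, 5.43 and 5.81, 5.79 and 5.88, 5.41 and 5.34, 4.97 and 5.84, and 6.23 and 5.90. For Cenpe all 10 other arrays lay above both WT arrays. Bub1, a kinase of the spindle checkpoint, read 3.21 and 3.16, 3.30 and 3.79, 3.60 and 3.78, 2.76 and 2.78, 3.47 and 4.22, and 3.85 and 4.12, with its lowest levels in IL-17C+ uninvolved skin. Tpx2, which nucleates spindle microtubules, read 4.69 and 4.97, 4.92 and 5.77, 5.93 and 6.00, 4.86 and 5.03, 4.91 and 5.82, and 6.46 and 6.01, with IL-17C+KO uninvolved skin highest.

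Among S phase genes, Pcna, the sliding clamp of DNA polymerases, had log2 levels of 7.27 and 7.74 for WT, 7.68 and 7.85 for IL-6KO, 8.07 and 8.01 for involved and 7.57 and 7.40 for uninvolved skin of IL-17C+ mice, and 7.58 and 7.97 for involved and 7.99 and 7.88 for uninvolved skin of IL-17C+KO mice. Mcm2, part of the replicative helicase, read in that order 4.84 and 5.66, 5.17 and 5.94, 6.11 and 6.01, 5.63 and 5.36, 5.57 and 5.90, and 5.86 and 5.59. The WT pools of Mcm2 were far apart, so that its age difference within WT was about as large as its difference between WT and IL-17C+ involved skin. Rrm2, a subunit of the enzyme that makes deoxynucleotides, read 4.56 and 4.37, 4.67 and 4.76, 5.42 and 4.93, 5.11 and 4.74, 4.56 and 5.40, and 5.37 and 5.13. Ccne1, the cyclin that starts S phase, read 4.98 and 4.28, 5.28 and 5.05, 5.43 and 5.06, 4.34 and 4.66, 4.92 and 5.48, and 5.28 and 5.39. For Pcna and Mcm2 IL-17C+ involved skin held the highest 2 arrays, whereas for Rrm2 and Ccne1 its pools were mixed with those of IL-17C+KO skin.

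The remaining members spread by different amounts over the arrays. Among the G1/S regulators, log2 levels ran from 4.27 to 5.14 for E2f1, a transcription factor of S phase genes, and from 3.99 to 4.52 for Mybl2, a transcription factor of the Myb family. Mybl2 and Rrm2 had a second, dimmer row each, whose difference between IL-17C+ involved and WT skin was 0.02 and 0.14 against 0.28 and 0.71 in the row used. In origin licensing and the helicase, Mcm3 ran from 4.09 to 5.40, Mcm5 from 5.04 to 6.12, Mcm6 from 6.12 to 6.98, the loader Cdc6 from 3.48 to 4.43 and the helicase cofactor Cdc45 from 3.75 to 4.64. Tyms, the enzyme that makes thymidylate, ran from 5.30 to 6.82. Its top level was in IL-17C+ uninvolved skin at 14 weeks, where E2f1 was highest as well.

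Many of the mitotic regulators had wider ranges, but several, among them Foxm1 and Aurka, spread less than Tyms (1.52) or Mcm3 (1.31). Cyclin gene Ccna2 ran from 5.12 to 6.84, cyclin gene Ccnb2 from 4.99 to 6.35, and Foxm1, a transcription factor of mitotic genes, from 4.12 to 5.01. Kinase gene Aurkb and its partner Cdca8 of the chromosomal passenger complex ran from 4.44 to 5.81 and from 3.68 to 4.90, and the mitotic kinase gene Pbk from 4.47 to 6.16. Aurka, the centrosome kinase gene, ran only from 4.32 to 4.93, the narrowest range of the 27, and the widest was that of Mki67, at 1.87. Checkpoint genes Bub1b and Ttk ran from 4.20 to 5.58 and from 5.05 to 6.25, and the kinetochore gene Cenpf from 4.27 to 5.34.

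Genes of the spindle and of cytokinesis moved over similar widths. The motor gene Kif11, which pushes spindle poles apart, ran from 4.72 to 6.43, and Kif2c, which shortens microtubules, from 3.81 to 5.14. Kif20a and Kif23, motors of cytokinesis, ran from 4.06 to 5.54 and from 4.51 to 5.96, and Prc1, which bundles microtubules between the separating chromosomes, from 5.05 to 6.57. Nusap1, a spindle protein gene, ran from 4.56 to 5.79. The range was 5.14 to 6.24 for Cdc20 and 5.03 to 6.27 for Ube2c, which both serve the ubiquitin ligase that ends mitosis, and 4.28 to 4.97 for Cdca3, a cofactor in the turnover of cell cycle proteins.

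How the transgene changes affected skin in mice not labelled as lacking IL-6 was asked by setting IL-17C+ involved against WT skin. All 39 members lay higher on average, and the mitotic genes by more than the S phase genes: the median log2 difference was 0.93 (0.01 to 1.48) over 27 mitotic genes and 0.47 (0.26 to 0.81) over 12 S phase genes, against 0.01 over all genes. At 10 and 14 weeks apart the medians were 1.04 and 0.81 for mitotic and 0.46 and 0.44 for S phase genes. The difference between the phases was not tested. In limma with Benjamini-Hochberg adjustment over all genes, 3 members rose, all mitotic, where 1.80% of all genes were called. Birc5 rose by 1.48 ± 0.26 (standard error; 2.78-fold, adjusted p = 0.0121), Plk1 by 1.14 ± 0.24 (2.20-fold, adjusted p = 0.0311) and Cenpe by 1.20 ± 0.28 (2.30-fold, adjusted p = 0.0492), each in both ages. Top2a, with a log2 difference of 1.36 ± 0.38, did not pass (adjusted p = 0.11), nor did Mcm2 at 0.81 ± 0.31 (adjusted p = 0.281), the largest of the S phase genes.

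Before adjustment more members had a low p. At an unadjusted p under 0.05 there were 23 members, the 3 that passed included, 20 mitotic and 3 S phase (Mcm2, Cdc45 and Rrm2), all higher, against 12.0% of all genes in either direction. Both IL-17C+ involved arrays lay above both WT arrays for 12 of 12 S phase genes and 25 of 27 mitotic genes, all but Foxm1 and Aurka, against 20.4% of all genes.

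By role, the 3 genes that passed belong to 2 of the 6 mitotic classes, the kinases with the passenger complex and the kinetochore with the checkpoint, and no gene of the other classes passed. Of the G2 and mitotic drivers, Cdk1 differed by 1.14 ± 0.31, Ccnb2 by 0.97 ± 0.30 and Ccna2 by 0.92 ± 0.45 on the log2 scale, but Foxm1 by only 0.35 ± 0.27. Among mitotic kinases and the passenger complex, Birc5 and Plk1 rose and Pbk differed by 1.19 ± 0.36, whereas Aurkb differed by 0.56 ± 0.31, Cdca8 by 0.38 ± 0.30 and Aurka by 0.01 ± 0.22. Birc5, Aurkb and Cdca8 encode parts of the same complex, and their mRNA differences were of unequal size, but were not tested against each other. Kinetochore and checkpoint genes lay between 0.50 (Bub1 and Ttk) and the 1.20 of Cenpe.

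The 7 genes of spindle, motors and cytokinesis had a median log2 difference of 0.98, from 0.47 ± 0.31 for Nusap1 to 1.25 ± 0.38 for Kif11. For the ubiquitin ligase cofactors the differences were 0.78 ± 0.26 for Ube2c, 0.53 ± 0.22 for Cdca3 and 0.52 ± 0.24 for Cdc20. In S phase the 6 licensing and helicase genes had a median of 0.45, with Cdc45 at 0.57 ± 0.26 and Mcm3 at 0.33 ± 0.31. The synthesis genes Rrm2, Pcna and Tyms differed by 0.71 ± 0.30, 0.54 ± 0.25 and 0.41 ± 0.29. The G1/S regulators Ccne1, Mybl2 and E2f1 differed by 0.61 ± 0.29, 0.28 ± 0.23 and 0.26 ± 0.24. None of these passed, with standard errors close to the size of the smaller differences.

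**Figure D2:**
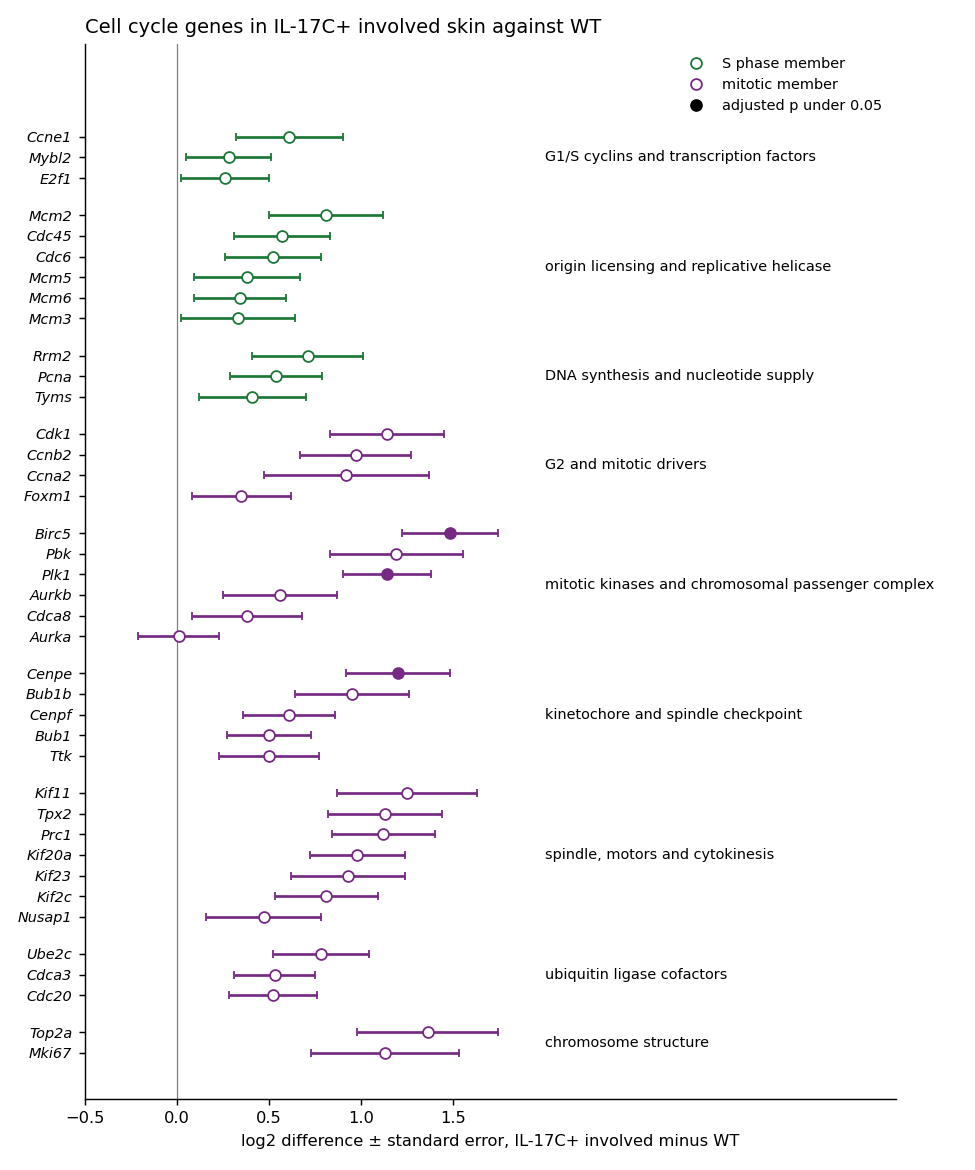
Log2 difference between IL-17C+ involved and WT skin for each of the 39 genes, grouped by role, with the standard error as a bar and filled points for an adjusted p under 0.05. Only Birc5, Plk1 and Cenpe are filled, and every point lies at or to the right of 0, with Aurka at 0.01.

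Further genes of the cycle were listed beside the members. Of 28 other G2 and mitotic genes 2 rose and none fell, with a median log2 difference of 0.59. Tacc3, a spindle protein gene, rose by 1.39 ± 0.27 (adjusted p = 0.0231) from 5.16 and 5.72 in WT to 6.85 and 6.81, and Cks2, a partner of cyclin-dependent kinases, by 1.46 ± 0.32 (adjusted p = 0.0377) from 4.09 and 4.77 to 6.07 and 5.70. The largest of the others, the kinetochore gene Ndc80, differed by 1.35 ± 0.37 (adjusted p = 0.0985). Of 27 other S phase genes 0 passed, with a median of 0.31, and Hells, a chromatin remodeller gene, differed most, by 1.16 ± 0.34 (adjusted p = 0.123). Neither the 11 G1 cyclins, kinases and activators (median -0.01) nor the 12 inhibitors of the cycle (median -0.03) held a gene that passed. Their largest differences were -0.73 ± 0.32 for Ccnd2, a D-type cyclin gene, and -0.84 ± 0.30 for Wee1, whose kinase restrains Cdk1.

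Markers of other tissue moved with these genes. The mean log2 level of 20 skeletal muscle genes fell from 9.56 and 10.35 in WT to 7.76 and 7.44 in IL-17C+ involved skin, with 17 of 20 genes past the threshold, and all 20 genes lay above the array median on every array. Of 4 stress keratins, which mark activated epidermis, 3 rose, with means of 7.03 and 6.22 in WT and 10.74 and 10.74 in IL-17C+ involved skin. Of 14 leukocyte markers 4 rose, with means of 5.24 and 5.21 against 6.35 and 6.62, and 3 and 4 of them lay below the WT array medians. The largest differences were those of S100a8 (group means of 4.11 in WT against 10.50) and S100a9 (4.70 against 10.84). The list did not move as one, since Adgre1, Cd3e, Cd3g, Cd79a and Cd8a had lower means than in WT. Of these, Cd79a and Cd8a were above the array median on 0 arrays, so their differences lie at the low end. The 16 hair keratins had means of 5.88 and 6.31 against 7.71 and 6.84, with 1 gene higher. Of 5 basal keratinocyte markers Krt14 rose by 1.52 ± 0.30 (adjusted p = 0.0247) and Col17a1 fell (-1.43 ± 0.28, adjusted p = 0.0235), with list means of 7.93 and 8.50 against 8.10 and 8.07.

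With the skeletal muscle mean as a covariate the mitotic median became -0.09 and the S phase median -0.22, and 0 members passed. That covariate was so closely tied to the groups that standard errors of all genes grew by a factor of 2.09 at the median. With the hair keratin mean as a covariate the medians were 0.52 and 0.32, and again 0 members passed, with standard errors larger by a factor of 1.29. The calls also rested on single arrays: without the IL-17C+ involved pool at 10 weeks or the WT pool at 14 weeks 0 members passed, and without the other pool of either group 1 did. Leaving out either IL-17C+KO involved pool gave 5.

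**Figure D3:**
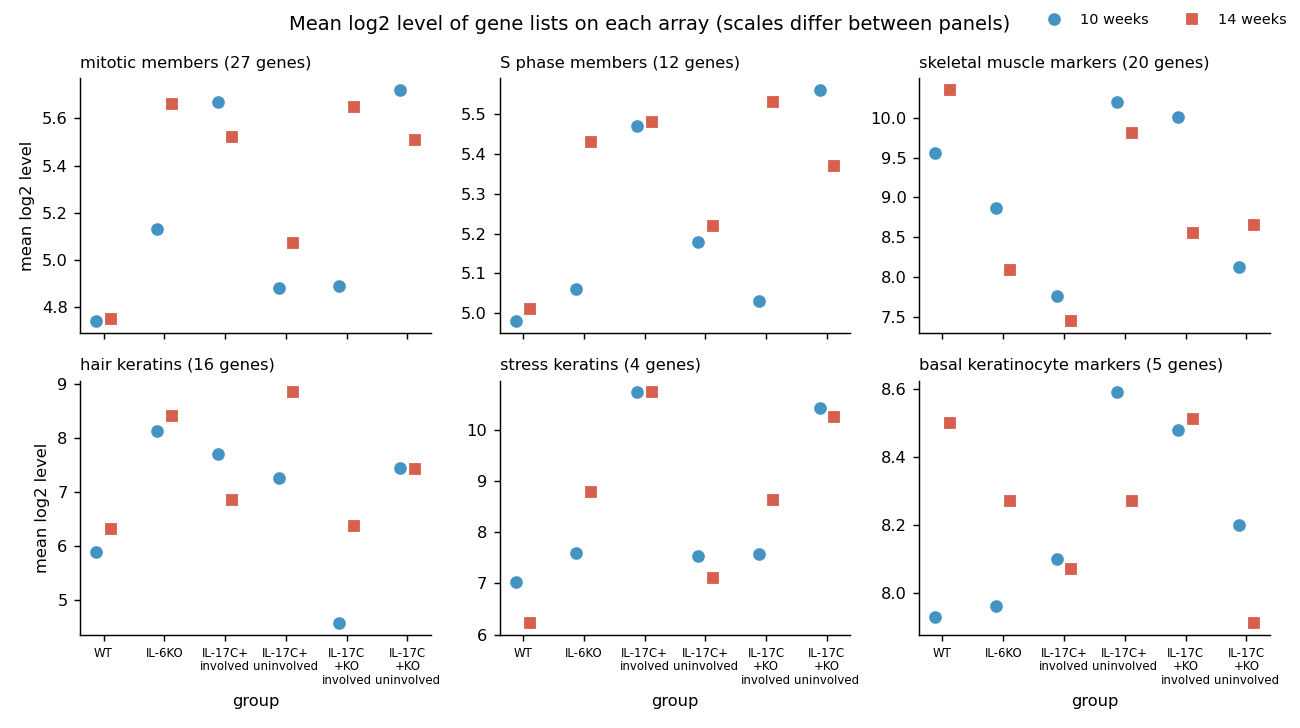
Mean log2 level of the mitotic genes, the S phase genes and 4 marker lists in each group, with circles for the 10 week and squares for the 14 week array and a scale of its own in each panel. Muscle markers are lowest in IL-17C+ involved skin, where stress keratins are highest, and the mitotic mean at 10 weeks is low in IL-17C+KO involved skin (4.89), where the muscle mean is 10.01.

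Involved against uninvolved skin of IL-17C+ mice asks what distinguishes affected areas within a genotype. Birc5 was the 1 member that rose, by 1.20 ± 0.26 (2.30-fold, adjusted p = 0.0342), where 1.61% of all genes were called. Both involved arrays (5.06 and 4.79) lay above both uninvolved ones (3.56 and 3.89). Plk1 followed at 1.03 ± 0.24 and missed the threshold (adjusted p = 0.0513), and so did Bub1 at 0.91 ± 0.23 (adjusted p = 0.0718) and Cdk1 at 1.14 ± 0.31 (adjusted p = 0.104). Ccne1 had the largest S phase difference, 0.74 ± 0.29 (adjusted p = 0.31), while Tyms was lower in involved skin, by -0.48 ± 0.29 (adjusted p = 0.567).

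The median log2 difference between the sites was 0.60 over the mitotic and 0.25 over the S phase genes, against 0.02 over all genes. At an unadjusted p under 0.05 there were 13 members, 11 of them mitotic, against 12.2% of all genes. Involved arrays lay above uninvolved ones without overlap for 23 of 27 mitotic and 8 of 12 S phase genes, against 24.5% of all genes. Of the further genes Cks2 rose by 1.56 ± 0.32 (adjusted p = 0.0279). Not passing were Uhrf1 of DNA methylation upkeep at 0.93 ± 0.27, the kinetochore gene Nuf2 at 1.02 ± 0.38, Ccnd2 at -0.82 ± 0.32 and Wee1 at -1.16 ± 0.30.

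Muscle markers differed here as they did against WT, with 17 of 20 lower in involved skin, and their mean was 10.20 and 9.81 in uninvolved skin. With the muscle mean as a covariate 0 members passed and the mitotic median was -0.32, with standard errors of all genes larger by a factor of 2.13. With the hair keratin mean it was 0.85, and 2 members passed. The call of Birc5 was lost without any 1 of the 4 arrays compared, and 2 members passed without either WT pool. A block for the pools of the same genotype and age left 0.

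IL-17C+ uninvolved skin, which shares its WT control with the first comparison, was set against WT next. No member passed in limma, where 0.0541% of all genes were called. Members with an unadjusted p under 0.05 numbered 3, Tyms, Kif20a and Cenpe, against 5.69% of all genes. Tyms differed by 0.89 ± 0.29 and Kif20a by 0.81 ± 0.26 on the log2 scale (adjusted p = 0.821 for both). Uninvolved arrays lay above WT for 14 of 27 mitotic and 4 of 12 S phase genes, against 14.9% of all genes, with medians of 0.28 and 0.20. Hair keratins were higher in uninvolved skin by a median of 2.06, with 1 of 16 past the threshold and 13 at an unadjusted p under 0.05, and their part in the result was not tested.

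IL-6KO skin was again set against WT, a contrast of labels with and without IL-6 where no transgene is named. The mitotic genes were higher in IL-6KO skin by a median log2 difference of 0.68 (0.05 to 1.19) and the S phase genes by 0.27 (-0.06 to 0.53), against -0.01 over all genes, but no member passed in limma, where 0.455% of all genes were called. At an unadjusted p under 0.05 there were 16 members, all mitotic and all higher, against 8.41% of all genes. IL-6KO arrays lay above WT arrays for 21 of 27 mitotic genes and 4 of 12 S phase genes, against 11.7% of all genes. Mki67 differed most, by 1.19 ± 0.40 (adjusted p = 0.349), from 6.82 and 6.85 in WT to 7.36 and 8.70. Differences of similar size were found for Prc1 at 1.14 ± 0.28 (adjusted p = 0.137), Ccna2 at 1.12 ± 0.45 (adjusted p = 0.507), Kif11 at 1.05 ± 0.38 (adjusted p = 0.419) and Kif20a at 1.05 ± 0.26 (adjusted p = 0.144), while Cdk1 differed by 0.19 ± 0.31. Ccne1 had the largest S phase difference, 0.53 ± 0.29 (adjusted p = 0.694).

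Hair keratins were also higher in IL-6KO skin, and whether they account for the mitotic difference was not tested. In IL-6KO skin 6 of 16 hair keratins rose over WT, with means of 8.12 and 8.40 against 5.88 and 6.31. There 2 of 20 muscle genes and 3 of 6 fibroblast genes fell. In IL-17C+ uninvolved skin the hair keratin means were 7.26 and 8.85, with mitotic means of 4.88 and 5.07. Between IL-6KO and WT skin none of the 6 hair matrix regulators passed (median log2 difference 0.52). No stress keratin passed, and their means were 7.59 and 8.79 in IL-6KO skin. With the hair keratin mean as a covariate the mitotic median became 0.05, with standard errors of all genes larger by a factor of 1.74, and with the muscle mean it became 0.07, with a factor of 1.54.

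The comparisons that follow share arrays with those above, so their values are not independent of them. Under the labels without IL-6, IL-17C+KO involved skin was set against IL-6KO skin. The median log2 difference was -0.13 over the mitotic and 0.05 over the S phase genes. No member passed in limma (0.171% of all genes did), and 0 members had an unadjusted p under 0.05, against 3.94% of all genes. Higher arrays without overlap were found for 1 of 12 S phase and 1 of 27 mitotic genes, Mcm6 and Cdca3, against 16.7% of all genes. Lower arrays without overlap were not counted, although 19 of 27 mitotic differences were below 0. The differences nearest to a change were 0.45 ± 0.25 for Mcm6 and -0.45 ± 0.28 for Kif2c, and that of Birc5 was -0.11 ± 0.26. Of 16 hair keratins 4 fell in the same comparison.

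Involved and uninvolved skin of IL-17C+KO mice differed in the opposite direction to that of IL-17C+ mice, but without a call. The median log2 difference of involved minus uninvolved skin was -0.34 over the mitotic and -0.20 over the S phase genes, and 0.505% of all genes were called. At 10 weeks the medians were -0.76 and -0.47, and at 14 weeks 0.12 and 0.15, so the ages pointed in opposite directions. At an unadjusted p under 0.05 there were 3 members, Tpx2, Cenpe and Birc5, all lower, against 6.11% of all genes. Tpx2 differed by -0.87 ± 0.31 (adjusted p = 0.527) and Cdc6, the largest S phase difference, by -0.53 ± 0.26 (adjusted p = 0.893). Involved arrays lay below uninvolved ones for 7 of 27 mitotic and 1 of 12 S phase genes, against 17.6% of all genes. Beside them 2 of 16 hair keratins, 1 of 4 stress keratins, 1 of 14 leukocyte and 1 of 6 fibroblast markers fell, 1 of 7 suprabasal keratinocyte markers rose, and no muscle gene passed. The stress keratin means were 7.57 and 8.64 in involved against 10.43 and 10.25 in uninvolved skin, and those of leukocyte markers 5.14 and 5.51 against 6.45 and 6.53, so that on both lists the uninvolved IL-17C+KO pools lay nearer to the IL-17C+ involved than to the IL-17C+ uninvolved pools.

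Uninvolved IL-17C+KO skin against IL-6KO skin gave medians of 0.22 over the mitotic and 0.17 over the S phase genes. No member passed, where 0.397% of all genes were called, and 1 member (Tpx2, 0.89 ± 0.31, adjusted p = 0.455) had an unadjusted p under 0.05, against 7.45% of all genes. Among S phase genes Mcm3 differed most, by 0.58 ± 0.31 (adjusted p = 0.757). Arrays lay higher without overlap for 8 of 27 mitotic and 4 of 12 S phase genes, against 17.1% of all genes. At 10 weeks Tpx2 was higher by 1.54 and Mcm3 by 1.31, at 14 weeks by 0.23 and -0.14.

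Within transgenic skin, pools labelled with and without IL-6 were compared at each site, although Il6 did not follow the IL-17C+KO label. In involved skin the median log2 difference of IL-17C+KO minus IL-17C+ was -0.28 over the mitotic and -0.19 over the S phase genes, -0.75 and -0.44 at 10 weeks but 0.15 and 0.06 at 14 weeks. No member passed, where 0.649% of all genes were called. Only 2 members had an unadjusted p under 0.05, Birc5 at -0.91 ± 0.26 (adjusted p = 0.169) and Plk1 at -0.84 ± 0.24 (adjusted p = 0.172), against 9.29% of all genes. Cdc6 had the largest S phase difference, -0.48 ± 0.26 (adjusted p = 0.651). IL-17C+KO arrays lay below IL-17C+ arrays for 9 of 27 mitotic and 4 of 12 S phase genes, against 21.4% of all genes. The muscle mean was 10.01 and 8.55 in IL-17C+KO and 7.76 and 7.44 in IL-17C+ involved skin. With it as a covariate the mitotic median turned to 0.29, and to 0.15 with the hair keratin mean. Standard errors of all genes were larger by factors of 1.66 and 1.56, and 0 members passed with either covariate.

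In uninvolved skin the direction was upward. Bub1 rose by 1.21 ± 0.23 (2.32-fold, adjusted p = 0.0276) in IL-17C+KO over IL-17C+ uninvolved skin, from 2.76 and 2.78 to 3.85 and 4.12, the only member to pass where 0.712% of all genes were called. Only the last of these 4 values lay above its array median, of 4.01. The next were Tpx2 at 1.29 ± 0.31 (adjusted p = 0.112) and, among S phase genes, Ccne1 at 0.83 ± 0.29 (adjusted p = 0.368). Of the members, 11 had an unadjusted p under 0.05, 10 of them mitotic, against 7.87% of all genes. Arrays lay higher without overlap for 25 of 27 mitotic genes, all but Ttk and Cdca3, and 5 of 12 S phase genes, against 19.7% of all genes, with medians of 0.67 and 0.28. Alongside, 2 of 4 stress keratins and 3 of 14 leukocyte markers rose, and 2 of 20 muscle genes, 1 of 5 basal and 1 of 7 suprabasal keratinocyte markers fell. Their part in the result was not tested. The call was lost when any 1 of the 4 arrays compared was left out.

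Whether the transgenic difference varied between labels with and without IL-6 was tested as an interaction in involved skin. It is the difference of IL-17C+KO from IL-6KO minus that of IL-17C+ from WT. Plk1 was the 1 member that passed, at -1.54 ± 0.33 (adjusted p = 0.0445), where 1.31% of all genes were called: its log2 difference was 1.14 ± 0.24 under the labels with IL-6 and -0.40 ± 0.24 under those without it. An unadjusted p under 0.05 was found for 15 members, 14 of them mitotic and all negative, against 9.98% of all genes. The median interaction was -1.10 over the mitotic and -0.49 over the S phase genes, against 0.00 over all genes. Birc5 at -1.59 ± 0.36 (adjusted p = 0.0548), Kif11 at -1.63 ± 0.54 (adjusted p = 0.249) and Cdc6 at -0.82 ± 0.37 (adjusted p = 0.497) did not pass. Beside this, 12 of 16 hair keratins and 3 of 4 stress keratins had negative and 14 of 20 muscle genes positive interactions that passed. Without either IL-17C+ uninvolved pool or the WT pool at 10 weeks 1 member passed, without the IL-17C+KO involved pool at 14 weeks 4 did, and without any other single array 0 did. With no replicate block for age Plk1 did not pass (adjusted p = 0.118).

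The site difference was likewise compared between genotypes, as that in IL-17C+KO minus that in IL-17C+ mice. Here 2 members passed, where 2.58% of all genes were called. Birc5 had an interaction of -1.79 ± 0.36 (adjusted p = 0.0198), from a site difference of 1.20 ± 0.26 in IL-17C+ to -0.59 ± 0.26 in IL-17C+KO mice. Tpx2 had one of -1.89 ± 0.44 (adjusted p = 0.0394), from 1.02 ± 0.31 to -0.87 ± 0.31. Top2a at -1.69 ± 0.54 (adjusted p = 0.164) and Cdc6 at -0.88 ± 0.37 (adjusted p = 0.363) did not pass. The interaction was negative for all 27 mitotic genes (median -1.05) and for 11 of 12 S phase genes (median -0.51), and 14 members had an unadjusted p under 0.05, against 11.7% of all genes.

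Among the further cell cycle genes Cks2 (-2.05 ± 0.45, adjusted p = 0.03) passed in the same direction and Wee1 (1.99 ± 0.42, adjusted p = 0.026) in the other. Wee1 had log2 levels of 5.56 and 5.50 in IL-17C+ involved against 7.30 and 6.09 in uninvolved skin, and 7.14 and 6.49 in IL-17C+KO involved against 6.29 and 5.69 in uninvolved skin. Muscle genes had the same sign as Wee1, with 18 of 20 passing, and 8 of 14 leukocyte markers and 3 of 4 stress keratins had the sign of Birc5. Without any 1 of the 4 transgenic pools of 10 weeks 0 members passed, without either IL-17C+ pool of 14 weeks 1 did, and without the IL-17C+KO involved pool of 14 weeks 5 did. A block for the pools of the same genotype and age left 0 members (Birc5 adjusted p = 0.0503, Tpx2 adjusted p = 0.0664). Il6 goes against the label in the IL-17C+KO arrays that enter here.

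**Figure D4:**
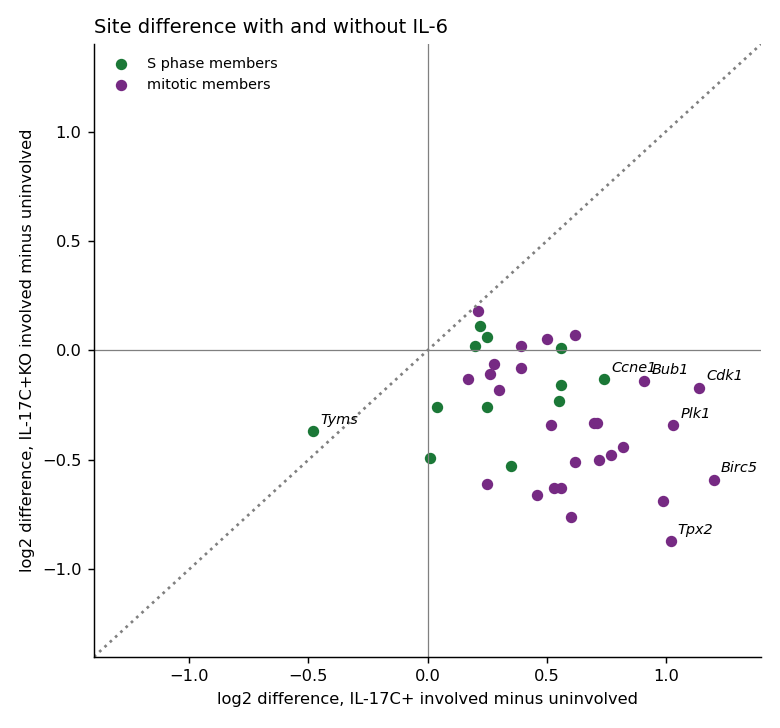
Log2 difference between involved and uninvolved skin in IL-17C+ mice (horizontal) and in IL-17C+KO mice (vertical) for each of the 39 genes, with equal values on the dotted line. The mitotic genes lie right of 0 and mostly below 0, with Birc5 at 1.20 and -0.59 and Tpx2 at 1.02 and -0.87, while Tyms is negative on both axes.

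Age had no call of its own. No member, and 0% of all genes, passed between 14 and 10 weeks in limma over the 6 groups, and at an unadjusted p under 0.05 there were 4 members (Tyms, Plk1, Ube2c and Mki67), against 8.37% of all genes. Mki67 differed by 0.51 ± 0.23 (adjusted p = 0.59) and Tyms by 0.46 ± 0.17 (adjusted p = 0.571). The groups themselves did not share a direction, although with 1 array at each age this has no test. In IL-17C+KO involved skin 26 of 27 mitotic and 12 of 12 S phase genes were higher at 14 weeks, by medians of 0.74 and 0.43, and in IL-6KO skin 24 of 27 and 10 of 12 were, by 0.51 and 0.38. In IL-17C+KO uninvolved skin 2 of 27 and 2 of 12 were higher, with medians of -0.21 and -0.21, and WT skin had medians of 0.00 and 0.04. IL-17C+ involved and uninvolved skin had mitotic medians of -0.15 and 0.18. In IL-17C+KO involved skin the muscle mean was lower at 14 weeks (8.55) than at 10 weeks (10.01) and the hair keratin mean higher (6.37 against 4.56), with 6 of 16 hair keratins below the array median at 10 weeks, and their part in the result was not tested.

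**Figure D5:**
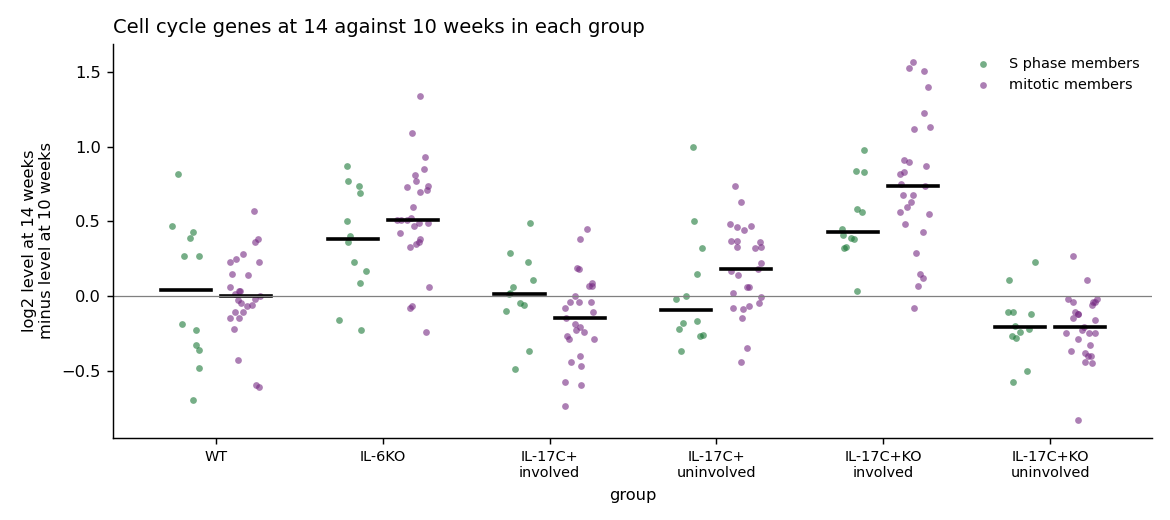
Log2 level at 14 weeks minus that at 10 weeks within each group, with 1 array at each age, for S phase and mitotic genes; each point is a gene and each bar a median. The IL-17C+KO involved and IL-6KO groups lie mostly above 0 (mitotic medians 0.74 and 0.51), and the IL-17C+KO uninvolved group mostly below it (-0.21).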

How the data were processed

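RNA of 12 skin pools was read on 12 expression arrays. The deposited values are array intensities on a linear scale, 1 per transcript cluster, made by RMA in Affymetrix Expression Console per the submitters' processing notes; the sources used here name no version or probe filter. The plan assumed log2 values; log2 of the deposited intensities was taken instead. RMA fits each array to a common distribution, so a shift shared by most genes would not show.

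Of 41345 rows, 23521 name 1 gene; the row with the highest mean stood for a gene, which left 22180 genes. Names came from the platform annotation and the RefSeq gene table of GRCm38.p6 (21994 identifiers found). No sample column was left unused (0). Arrays were grouped by their titles only.

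limma 3.58.1 in R 4.3.3 fitted 1 model (lmFit, then eBayes with trend, two-sided) of group plus age over all 12 arrays, with 5 degrees of freedom left and 7.65 from the prior. The Benjamini-Hochberg adjustment ran over 22180 genes in each of 12 comparisons, with 0.05 as the threshold. The script was tested on simulated data. Having 2 arrays per group limits the precision. The members and lists were chosen with earlier results of these data known. Ccna2, Foxm1 and Mki67 were counted as mitotic and E2f1 and Mybl2 as S phase genes. List genes not analysed here include Ccne2, Ccnb1, Hjurp, Trp53, Krt5 and Krt85.

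Named in each comparison were up to 6 passing members of each phase and the largest that did not pass, and of other pathway lists up to 3 and 1. Prc1, Ccna2, Kif11 and Kif20a in IL-6KO skin, Plk1 and Bub1 between sites, Plk1 in involved skin without IL-6, Birc5 in the interaction of transgene and IL-6, Krt14 and Col17a1, and values by role against WT were added after their values were seen. The alternatives tried were no replicate block, a block of genotype and age, eBayes without the trend, only the 14362 genes above the array median on at least 2 arrays, quantile normalization again, the mean of all rows, a muscle or hair covariate, 5 genes of both phases left out, and each array left out. Leaving out both IL-17C+KO uninvolved arrays was chosen after seeing the data.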

Additional observations from a re-analysis of the deposited data

Results flagged for a closer look

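The effect of a condition differed between genotypes labelled with and without IL-6 for 3 results, each by limma's test of the interaction itself with Benjamini-Hochberg adjustment. For Plk1 the difference of transgenic involved skin from its control without the transgene was lower under the labels without IL-6 by -1.54 ± 0.33 on the log2 scale (adjusted p = 0.0445). It did not pass with no replicate block for age (adjusted p = 0.118), and 0 members passed on leaving out any 1 of 8 of the 12 arrays. The difference of involved from uninvolved skin was lower by -1.79 ± 0.36 for Birc5 (adjusted p = 0.0198) and by -1.89 ± 0.44 for Tpx2 (adjusted p = 0.0394). With a block for the pools of the same genotype and age neither passed (adjusted p = 0.0503 and 0.0664). All 3 rest on n = 2 pools in each of 4 groups, and on the site labels of the IL-17C+KO pools. The Plk1 result also rests on the IL-6KO pools as a control. Plk1 read 5.31 and 5.83 there at 10 and 14 weeks, against 4.76 and 4.99 in WT. Il17c read 6.30 and 6.17 in those IL-6KO pools, although their genotype names no transgene. At 10 and 14 weeks, IL-17C+KO pools labelled uninvolved had higher stress keratin means (10.43 and 10.25) than those labelled involved (7.57 and 8.64). IL-17C+ mice had the reverse order, with 10.74 and 10.74 for involved pools against 7.54 and 7.10 for uninvolved ones. Whether the site labels hold was not tested.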

How the results depend on the processing

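Of 45 results for single genes, 13 passed, and 8 of the 45 changed sign under some alternative. With the muscle covariate Top2a (-0.53), Ndc80 (-0.29) and Ccnd2 (0.19) reversed between IL-17C+ involved and WT skin, and Ccne1 (-0.10), Cdk1 (-0.11), Nuf2 (-0.89) and Ccnd2 (0.11) between IL-17C+ involved and uninvolved skin; Ccne1 reversed between IL-6KO and WT skin with the hair covariate (-0.17). Against WT, the members called in IL-17C+ involved skin were 1 without the age block and 0 with the muscle or hair covariate. Its S phase median was 0.41 after quantile normalization, 0.42 with the mean of all rows, -0.22 with the muscle and 0.32 with the hair covariate, and 0.53 without the 5 genes of both phases (Ccna2, E2f1, Mybl2, Foxm1 and Mki67); its mitotic median was -0.09 and 0.52 with the covariates. Between the sites of IL-17C+ mice 2 members were called without the trend, with the filter on low genes or with the hair covariate, and 0 with the muscle covariate. The replicate block of genotype and age left 0 members there and 0 in the site by IL-6 interaction, where no replicate block gave 1 and quantile normalization 4. For uninvolved skin of IL-17C+KO against IL-17C+ mice no replicate block and the filter on low genes each gave 0. The transgene by IL-6 interaction gave 0 with no replicate block, 2 with the filter, 2 after quantile normalization, and 0 without both IL-17C+KO uninvolved arrays. Leaving out 1 array gave 0 to 5 members in IL-17C+ involved against WT skin, 0 to 2 between its sites, 0 to 1 in IL-17C+KO against IL-17C+ uninvolved skin, 0 to 4 and 0 to 5 in the interactions of transgene and of site, and medians of 0.34 to 0.49 (S phase) and 0.72 to 1.11 (mitotic) against WT. The cause of these changes was not tested. In the other 7 comparisons no alternative that was run called a member. Each group has 1 pool at each age, so an effect that differs between ages counts as spread.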
